A study of Mus musculus with 2 samples.

Results

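Gene-end peaks are DNase I accessible regions at the 3′ ends of protein-coding genes. A peak was counted as one when its midpoint lay within 500 bases of the gene-level 3′ end of a protein-coding gene (GENCODE M21 on mm10), outside coding sequence (CDS) and over 2000 bases from every annotated transcript start of any gene. Position and annotation alone chose them, from the longer of the peak lists of each library. They numbered 828 of 132054 peaks (0.627%) in library 1 and 938 of 139799 peaks (0.671%) in library 2, a mean of 883 ± 77.8 (SD, n = 2 libraries).

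The tissue was left cerebral cortex of adult female mice, 18 to 20 months old, of B6CASTF1/J, a first-generation hybrid between C57BL/6J and CAST. DNase-seq sequences the sites at which the enzyme DNase I cuts chromatin. The study had 1 group and 2 libraries, called library 1 and library 2 after their biological replicate numbers. They come from separately registered tissue samples under a shared donor identifier, and whether those were separate animals is not stated, so the spread between them may be technical. No contrast of conditions is implied, and values of both libraries stand side by side without a test. Sequencing depth is unknown, so every 95% interval (exact binomial) covers the counting of regions only. Because the tissue was bulk, a larger share of cells with an open site and a more open site in each cell cannot be told apart.

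At the 3′ end of a gene the nascent transcript is cut and polyadenylated a short way beyond a hexamer, most often AATAAA, and RNA polymerase II goes on for some distance before it stops. The DNA around this point is poor in G and C, and its accessible sites can be distal regulatory elements, unannotated starts or sites of the architectural protein CTCF, which stops cohesin as it extrudes chromatin loops. A protein bound to open DNA shields its site from DNase I and leaves a footprint, a short stretch with fewer cuts than its surroundings.

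The sequences below are footprints, or parts of them, at strong gene-end peaks that hold a match to a searched consensus. They show which letters the authors' footprints cover there. Sequence is RefSeq's GRCm38.p6 assembly, the same build as mm10, written 5′ to 3′ on the strand of the match, with the match in capitals. The first 7 hold the consensus of CTCF, and the match is followed by its strand and the library of the footprint.
Mtch2, chr2:90866713-90866741, plus, whole footprint of library 1: tgtccaCCACCAGAGGGCagcagaacttt
1700029H14Rik, chr8:13551144-13551172, plus, whole footprint of library 1: ctgaaCCACCAGAGGGCaccatcagacag
Ror2, chr13:53109646-53109675, plus, whole footprint of library 1: gactCCAGCAGATGGCagcatcgagctcct
Ror2, chr13:53109746-53109773, plus, whole footprint of library 2: cctccgCCAGCAGGGGGCtcacggagca
Dand5, chr8:84815722-84815751, minus, part of a footprint of both libraries: cgcttttagCCACTAGGTGGCaccgcgtcc
Ripor1, chr8:105622557-105622586, plus, around a footprint of both libraries: gagctgtcgCCACCAGGGGGCagcagaact
Acvrl1, chr15:101145555-101145584, minus, part of a footprint of both libraries: gcgcattggCCAGCAGAGGGCgacgtggct
Footprints longer than 30 bases are shown as the match with 9 bases on either side, a choice made after their values were seen. In library 1 the whole footprints were 47 bases at Dand5, 32 at Ripor1 and 42 at Acvrl1, and those of library 2 were 48, 33 and 36 bases. For Ripor1 the printed stretch starts before the footprint does, at base 105622561 in library 1 and 105622560 in library 2. It also ends before the footprint does, at base 105622592 in both. The stretch thus holds part of the footprint and a few bases before it. The first Ror2 match also contains CAGATGG, the E-box searched for NeuroD factors.

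The next 6 footprints hold GGGCGG, the GC box bound by SP and KLF factors, or CACGTG, the E-box bound by clock factors among others, and are the whole footprint of the library named.
Fam120a, chr13:48878732-48878752, plus, library 1: tcgtCACGTGgttccgccctg
Fndc5, chr4:129144758-129144779, plus, library 1: agatgggggtgCACGTGtagga
a (nonagouti), chr2:155050839-155050854, plus, library 1: attGGGCGGggcttca
Shf, chr2:122348946-122348961, minus, library 2: gggaggGGGCGGggag
Hspb7, chr4:141425956-141425975, plus, library 2: tggggtgggGGGCGGggctg
Prss22, chr17:23993702-23993728, plus, library 2: tgagGGGCGGatcctctatgtgggcgg
The Fam120a footprint of library 1 holds both motifs, the GC box on the minus strand beside the E-box. The whole CACGTG lay in a footprint of library 1 only, at Fam120a and at Fndc5. The library 2 footprint began inside the E-box at Fam120a and ended inside it at Fndc5. At Prss22 the other GGGCGG of the footprint is left in lower case.

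Gene-end peaks lay at a small share of gene ends. The 828 peaks of library 1 lay at 826 genes and the 938 of library 2 at 909 genes. Of 21938 protein-coding genes, 17390 had an end that could hold such a peak, since some position there met the rule. An overlapping gene-end peak stood in both libraries at 645 of these ends (3.71%), while 4.75% had a peak in library 1 and 5.23% in library 2. A further 172 ends had a peak in library 1 only, 255 in library 2 only, and 9 had peaks in both libraries that did not overlap. In all, 1081 ends had a gene-end peak in at least 1 library. The sequence within the rule spanned 14.9 Mb and held 55.5 peaks per Mb in library 1 and 62.9 in library 2. All other sequence over 2 kb from a start held 37.4 and 39.1 peaks per Mb. The density at gene ends was close to that of other exons outside CDS, with 56.8 and 62.2 per Mb, and lower than that of CDS, with 83.3 and 108 per Mb, at the same distance from starts. Promoter windows, within 500 bases of a start, held 314 and 333 per Mb.

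Gene-end peaks were of middling strength, weaker than promoter peaks and somewhat stronger than other distal ones. The signal of a peak is the authors' value, with no unit given. Its median over gene-end peaks was 0.749 in library 1 (quartiles 0.490 and 1.26) and 0.709 in library 2 (quartiles 0.452 and 1.25), a mean of 0.729 ± 0.0279 (SD, n = 2). Single values ran from 0.129 to 7.64 in library 1 and from 0.0802 to 7.75 in library 2. Other peaks over 2 kb from a start had medians of 0.572 and 0.561. Promoter peaks had medians of 1.23 and 1.31, CDS peaks 0.578 and 0.586, intron peaks 0.606 and 0.592, and peaks outside genes 0.517 and 0.512. Peaks in other exons outside CDS came closest among the distal classes, with 0.653 and 0.647. The median width was 186 and 180 bases for gene-end peaks, against 184 and 181 bases for the other distal peaks. At the edge of the rule, peaks in the outermost 100 bases of the window had median signals of 0.694 (n = 169) in library 1 and 0.635 (n = 199) in library 2. Those in the next 100 bases outside it had medians of 0.728 (n = 173) and 0.728 (n = 195). On the other limit, peaks within 500 bases beyond the 2 kb distance from starts had medians of 0.824 (n = 69) and 0.691 (n = 81), against 0.715 (n = 91) and 0.666 (n = 114) within 500 bases inside that distance.

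Most gene-end peaks had a counterpart in the other library. An overlap of at least 1 base was found for 79.3% of those in library 1 (657 of 828, interval 76.4 to 82.1%) and 70.1% of those in library 2 (658 of 938, 67.1 to 73.1%), a mean of 74.7 ± 6.50% (SD, n = 2). For other distal peaks the shares were 74.7% and 71.4%, and for promoter peaks 87.9% and 82.4%. Sharing followed signal closely. When all peaks of a library were cut into 4 signal bands of equal number, gene-end peaks of library 1 were shared in 46.2%, 61.4%, 92.9% and 99.6% of cases, from the weakest band to the strongest. Those of library 2 were shared in 31.3%, 55.8%, 82.2% and 99.6%. Other distal peaks gave 44.9%, 73.3%, 93.3% and 99.8% in library 1 and 41.7%, 68.6%, 90.6% and 99.6% in library 2. The second band of library 1 thus had an interval of 54.5 to 68.0% for gene-end peaks and 72.8 to 73.9% for other distal peaks, which did not overlap. In library 2 the intervals of the lower 3 bands did not overlap either, with gene-end peaks below. In the strongest band 233 of 234 gene-end peaks of library 1 and 246 of 247 of library 2 were shared.

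**Figure D1:**
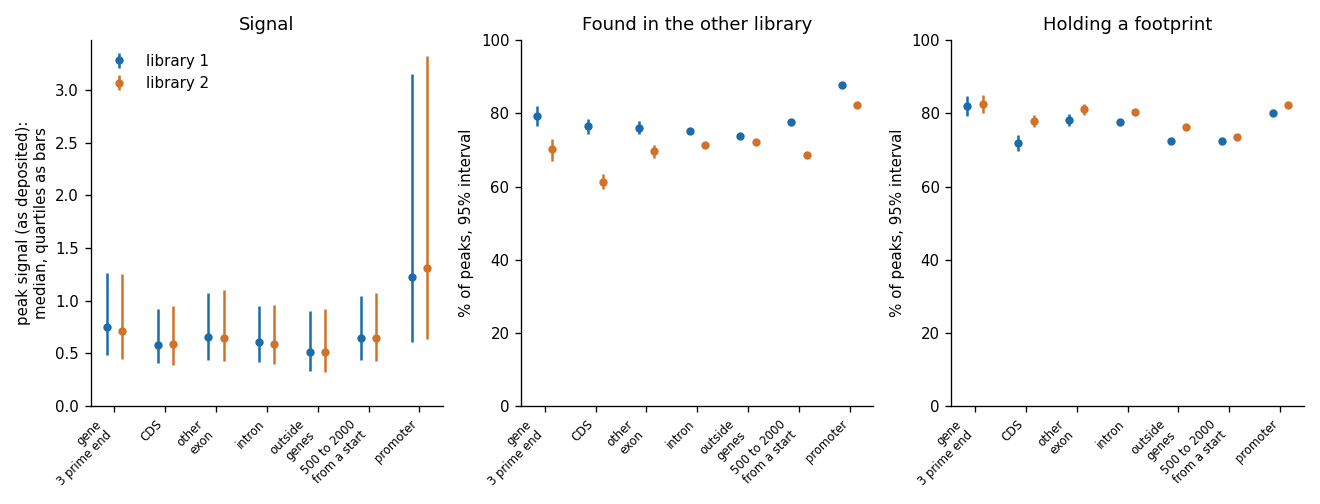
Peak signal (median as point, quartiles as bars, as deposited), share of peaks found in the other library and share holding a footprint (percent, 95% intervals) for gene-end peaks at the left and 6 other classes of peak, in library 1 (blue) and library 2 (orange). Gene-end peaks have medians of 0.749 and 0.709, under the promoter medians of 1.23 and 1.31, and hold a footprint in 82.1% and 82.6% of cases.

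Footprints stood in most gene-end peaks. At least 1 footprint had its middle inside 680 of 828 peaks in library 1 (82.1%, 79.3 to 84.7%) and 775 of 938 in library 2 (82.6%, 80.0 to 85.0%), a mean of 82.4 ± 0.351% (SD, n = 2). The other distal peaks held a footprint in 75.2% and 78.5% of cases, and promoter peaks in 80.0% and 82.3%. Among the other distal peaks, those in other exons outside CDS were closer, with 78.2% (76.5 to 79.9%) and 81.1% (79.5 to 82.6%). Their intervals overlap those of gene-end peaks in both libraries. Footprints were 1537 and 1853 in number, or 9.997 and 10.49 per kb of gene-end peak, against 8.77 and 9.47 per kb of other distal peak. Promoter peaks had 11.5 and 11.9 per kb. Within signal bands this order did not hold throughout, and in the lower 3 bands of both libraries the share was smaller for gene-end peaks. From the weakest to the strongest band, 37.1%, 77.1%, 93.7% and 99.6% of gene-end peaks in library 1 held a footprint, against 41.5%, 79.2%, 93.9% and 98.9% of other distal peaks. In library 2 the shares were 42.9%, 81.7%, 94.4% and 100% for gene-end peaks and 49.2%, 82.9%, 94.5% and 99.5% for other distal peaks. The intervals of the classes overlapped in every band of both libraries. The number of footprints went with signal and with sharing. Without a footprint, the median gene-end peak had a signal of 0.395 (library 1) and 0.364 (library 2), and 47.3% and 33.1% of such peaks were shared. Those with at least 2 had medians of 1.08 and 1.04, and 92.7% and 86.7% were shared. Bases below the stricter false discovery rate of 0.001 lay in 512 gene-end peaks of library 1 (61.8%) and 566 of library 2 (60.3%), against 58.6% and 57.3% of other distal peaks.

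The density of peaks dipped around the gene end itself. Peak midpoints were counted in bins of 100 bases along the gene's strand, per Mb of sequence that the rule allows. In the last 100 bases of the gene the density was 31.0 peaks per Mb in each library, from 48 peaks each. The first 100 bases beyond the end held 41.3 per Mb in each. The other bins within 500 bases of the end held between 51.7 and 80.5 per Mb in library 1 and between 60.3 and 94.8 in library 2. Bins from 2000 to 500 bases before the end held between 45.6 and 73.9 per Mb in library 1 and between 54.8 and 75.5 in library 2. Bins from 500 bases to 2000 bases past the end held between 48.2 and 65.3 per Mb in library 1 and between 56.5 and 78.9 in library 2. The last 100 bases of the gene were also the poorest in G and C, with 35.8%, against 43.4% in the bin from -500 to -401 and 44.6% from 100 to 199. That base composition moved with the dip, and its part in it was not tested. Over the whole window 385 gene-end peaks of library 1 (46.5%, 43.1 to 49.96%) and 439 of library 2 (46.8%, 43.6 to 50.1%) lay upstream of or at the end. The sequence open to the rule was itself 47.3% upstream, 7.25 Mb against 8.06 Mb downstream.

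**Figure D2:**
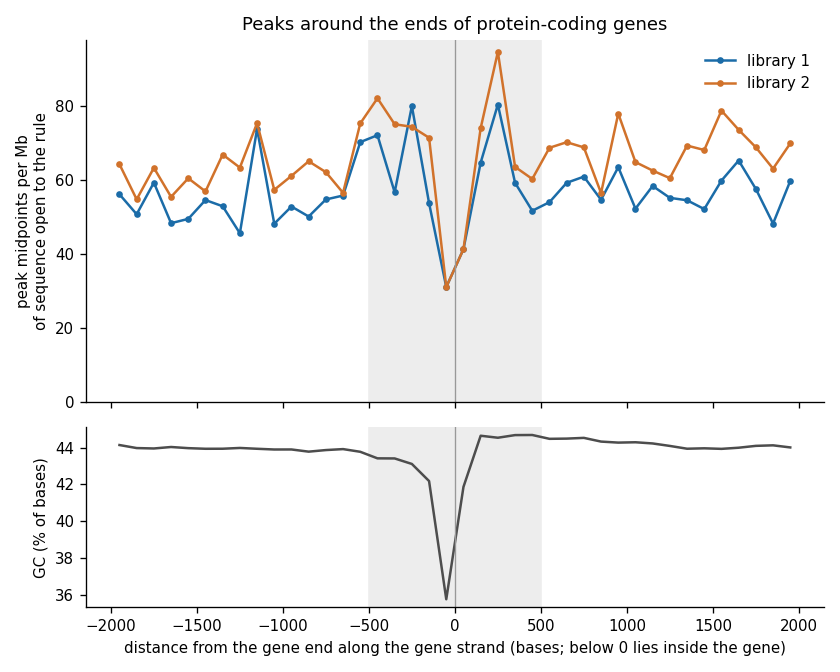
Upper panel, peak midpoints per Mb of sequence open to the rule in bins of 100 bases around the gene end, for library 1 (blue) and library 2 (orange). Lower panel, percent G and C of the same sequence on a cut axis. Negative distances (bases) lie inside the gene and the grey band is the window of the rule. Density falls to 31.0 per Mb in both libraries in the bin just before the end, where G and C fall to 35.8%.

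By annotation, 340 gene-end peaks of library 1 (41.1%) and 383 of library 2 (40.8%) had their midpoint in the 3′ untranslated region (UTR) of their own gene. Outside all genes lay 364 (44.0%) and 405 (43.2%). Introns of their own gene held 37 and 45, with median signals of 1.07 and 0.820. Introns of another gene held 48 and 58, and exons of another gene 31 and 36. A gene on the opposite strand covered the midpoint of 109 (13.2%) and 130 (13.9%), and for 35 and 45 the ends of at least 2 genes lay within reach. DNase I cuts carry no strand of transcription, so such a peak belongs to both genes alike. The peak itself spanned the gene end in 100 cases in library 1 (12.1%) and 107 in library 2 (11.4%), with median signals of 0.905 and 0.962, and 88.0% and 83.2% of these were shared.

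The strongest gene-end peaks are given here for pairs in which both peaks met the rule, ranked by the mean signal of both libraries. Fam120a, which encodes an RNA-binding protein, had the highest mean signal, 7.64 in library 1 and 7.75 in library 2, in a peak at chr13:48878641-48878900 that lay 448 bases beyond the gene end, outside genes. Its 200 bases around the midpoint were 66% G and C, with a CpG ratio (observed over expected) of 1.06, and the nearest start in RefSeq was 7816 bases away. Bcat2, the mitochondrial aminotransferase of branched-chain amino acids, followed with 6.78 and 5.75 at chr7:45589201-45589500, 360 bases inside its end in its own exon, with 7 footprints in each library. Rtn2, a reticulon that shapes the endoplasmic reticulum, had 5.48 and 5.57 at chr7:19295921-19296080, 159 bases before its end. All 3 peaks lay over 2 kb from every start in RefSeq as well.

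Of the 20 strongest matched peaks, 6 held a CTCF match. Dand5, a secreted antagonist of Nodal, had a signal of 4.53 in library 1 and 5.77 in library 2 at chr8:84815641-84815840, in its own exon. The peak of 1700029H14Rik had 4.93 and 4.36 at chr8:13551121-13551320, in an intron of the gene. Ripor1 had 4.36 and 4.75 at chr8:105622481-105622660, which lies 352 bases beyond its end in an intron of Agrp on the opposite strand, the agouti-related peptide of feeding circuits. These peaks carried the footprints printed above for them. Ror2, a receptor of Wnt5a, had 3.51 and 4.46 at chr13:53109621-53109800, where 2 CTCF matches each lay in a footprint of both libraries. Acvrl1, a receptor of the TGF-beta family in endothelial cells, had 3.74 and 3.53, and Mtch2, an outer membrane protein of mitochondria, had 3.06 and 3.95. At Mtch2 the peak, chr2:90866641-90866820, spanned the gene end, and its CTCF match was upstream of that end.

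The other strong peaks came from genes of varied function. Thbs4, a thrombospondin of the extracellular matrix, had 4.72 in library 1 and 5.02 in library 2 in one of its introns. Lrrc24 had 4.51 and 4.58 where it overlaps Lrrc14 on the opposite strand. Prss22, a serine protease, had 4.48 and 4.55 and 4 footprints in each library. The midpoints of these 3 peaks lay inside their genes. Meltf, melanotransferrin, had 4.19 and 4.40, and a RefSeq start lay 1078 bases away that GENCODE M21 does not hold. The gene a (nonagouti), which encodes the agouti signalling protein of coat colour, had 4.08 and 4.33 in its own exon, at 66% G and C. Sncb, the presynaptic protein beta-synuclein, had 3.63 and 4.69 at chr13:54758441-54758740, 269 bases beyond its end. The remaining 5 were Sema4a, a semaphorin, with 3.85 and 3.82, Dnajb12, a chaperone of the endoplasmic reticulum, with 3.95 and 3.69, Fndc5, the precursor of irisin, with 3.55 and 3.95, Elmod3 with 3.63 and 3.47, and Lmod1, an actin nucleator of smooth muscle, with 3.12 and 3.69.

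**Figure D3:**
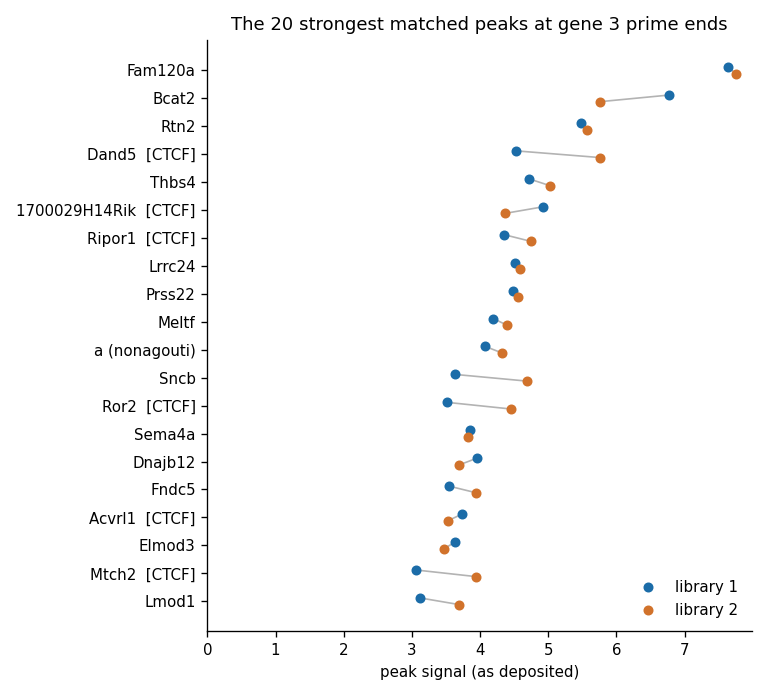
Signal (as deposited) of the 20 gene-end peaks of highest mean signal, among matched pairs in which both peaks met the rule, in library 1 (blue) and library 2 (orange), joined by a line. Brackets mark the 6 with a CTCF match. Fam120a has 7.64 and 7.75, and the pairs differ most at Dand5, Bcat2 and Sncb.

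Matched gene-end peaks had similar signals in the libraries. Of 625 pairs in which each peak was the other's strongest overlap, 252 were higher in library 1 and 373 in library 2. The median log2 of library 1 over library 2 was -0.10 (SD 0.38 over pairs), and the range was -1.36 to 0.96. Across pairs Spearman's rank correlation was 0.909 and Pearson's r of log2 signal was 0.919, as a description over regions of the same libraries. No pair was over 2-fold higher in library 1, where 0.771% of all 99347 matched peaks were, and 5 (0.8%) were over 2-fold higher in library 2, where 0.823% of all were. For other distal pairs the rank correlation was 0.881 over 64047 pairs, and 1.95% were over 2-fold apart in either direction.

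Among pairs of at least median signal, Sema6c, a semaphorin, stood farthest apart, with 0.803 in library 1 and 2.07 in library 2. Tmem269 had 0.769 and 1.59, Pacsin2, a membrane-bending protein, 0.762 and 1.57, Thegl 0.803 and 1.61, and Nacc2, a transcriptional repressor, 0.851 and 1.62. In the other direction Psmf1, an inhibitor of the proteasome, had 1.59 and 0.814, Nhlrc3 1.69 and 0.907, Grasp, a scaffold of glutamate receptors, 1.32 and 0.783, Trp53tg5 1.29 and 0.783, and Ythdf1, a reader of methylated adenosine in RNA, 1.18 and 0.783. All 10 were peaks of both libraries by the choice of pairs, and none held a CTCF match.

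**Figure D4:**
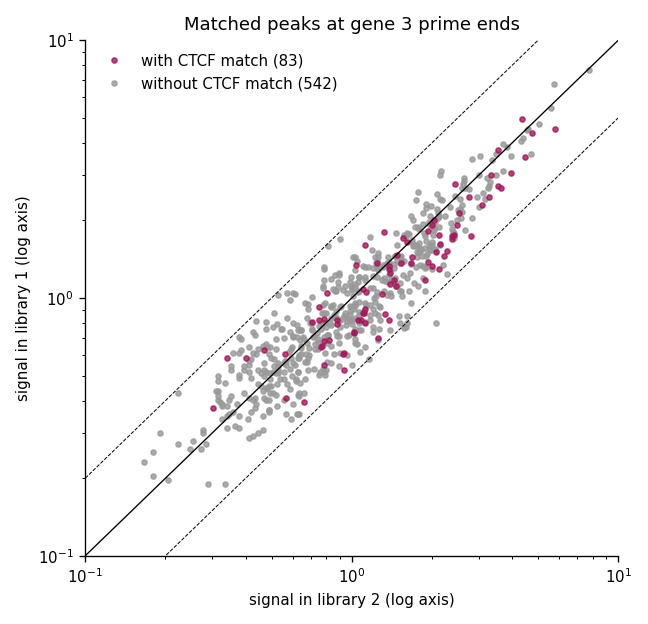
Signal in library 1 against library 2 on log axes for 625 matched gene-end peaks, with a CTCF match (purple, 83) or without (grey, 542). The solid line marks equal signal and the dashed lines 2-fold. Only 5 points lie past a dashed line, all on the side of library 2.

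Gene-end peaks without an overlap in the other library reached a signal of 1.46 in library 1 and 1.29 in library 2. In library 1 the strongest were at Pigv, an enzyme of membrane anchor synthesis, with 1.46, Hjurp, the chaperone of the centromeric histone, with 1.14, and Papola, the poly(A) polymerase, with 1.09. Fhl3 had 0.980 and Sall2, a zinc finger factor, 0.973. The Pigv peak lay 60 bases from a library 2 peak of 2.82, and that of Fhl3 abutted a library 2 peak of 1.53. In library 2 they were at Il12rb1, a subunit of the interleukin-12 receptor, with 1.29, Stac2 with 1.19, Hjurp with 1.14, Acsbg1, an acyl-CoA synthetase, with 1.01, and Eef1a2, the elongation factor of neurons and muscle, with 0.968. Both Hjurp peaks lay in its own exon, 133 bases apart. The nearest library 2 peak lay 2740 bases from the Papola peak and 4840 bases from the Sall2 peak, so some unshared peaks had a close neighbour in the other library and some had none.

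Some gene-end peaks were crowded with footprints. The highest number over both libraries was at Hspb7, a small heat shock protein of muscle, with 7 in library 1 and 10 in library 2 in a peak 460 bases beyond its end, chr4:141425541-141426000. Shf, an SH2 adaptor, had 7 and 8, in a peak with 68.5% G and C and a CpG ratio of 1.02. Gm21887 had 10 and 5 in an intron at the pseudoautosomal end of chromosome X, beside Erdr1, where reads can come from more than 1 copy and the authors' placement of them is not known here. Bcat2 had 7 and 7. Rmnd5b, a subunit of a ubiquitin ligase, had 6 and 6, and Rtn4r, the Nogo receptor, had 5 and 7 in a peak that spanned its gene end. Cpxm2 had 4 and 8 at signals of only 0.565 and 0.678, Sncb 5 and 6, and Ctdsp1, a phosphatase that acts with the repressor REST, 5 and 6. The peak at 3300002I08Rik, with 5 and 6 footprints, lay 29 bases from a RefSeq start of Gm10130, and so is a promoter by that annotation.

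In base composition gene-end peaks resembled distal peaks and not promoters. The median G and C content of 200 bases around the midpoint was 51.5% in library 1 and 52.0% in library 2, against 49% and 50% in other distal peaks and 62.5% in promoter peaks of each library. The median CpG ratio was 0.254 and 0.263, against 0.723 and 0.715 in promoter peaks. CpG-rich windows, with a ratio over 0.6 and over 50% G and C, made up 53 gene-end peaks of library 1 (6.401%) and 60 of library 2 (6.397%). They made up 3.46% and 3.88% of other distal peaks and 60.9% and 59.9% of promoter peaks. Among the other distal peaks, those in other exons outside CDS were close to gene-end peaks. Of these exon peaks 5.83% and 5.81% were CpG-rich, at a median G and C of 51% and 51.5%. Of CDS peaks 23.3% and 24.3% were CpG-rich. CpG-rich gene-end peaks had median signals of 1.31 and 1.14. A start in RefSeq that GENCODE M21 does not hold lay within 500 bases of 10 gene-end peaks of library 1 and 14 of library 2, and 797 (96.3%) and 893 (95.2%) were over 2 kb from every RefSeq start too.

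The poly(A) signal was found in about 1 in 10 gene-end peaks, a share that depends on the window. AATAAA on the strand of the gene stood in the 200 bases around 95 of 828 midpoints in library 1 (11.5%, 9.38 to 13.8%) and 102 of 938 in library 2 (10.9%, 8.95 to 13.0%). The variant ATTAAA stood in 35 (4.23%) and 35 (3.73%). Within 250 bases of the gene end AATAAA stood in 20.2% and 19.4% of gene-end peaks, and within 1000 bases in 8.10% and 7.89%. On the plus strand, AATAAA stood in 7.25% and 6.27% of other distal peaks and 2.63% and 2.38% of promoter peaks. ATTAAA went the other way against other distal peaks, which held it in 5.197% and 4.452% of cases, above the gene-end shares. For ATTAAA the intervals of these classes overlapped in both libraries. Promoter peaks held it in 1.699% and 1.662%. In 157145 windows of the same length at gene ends without a gene-end peak AATAAA stood in 22.1%, and ATTAAA in 12.7%, at a median G and C of 43.0%. The hexamer was also looked for just before the gene ends that a peak spanned. AATAAA lay from 39 to 5 bases before 53 of the 100 spanned ends in library 1 (53.0%, 42.8 to 63.1%) and 62 of 107 in library 2 (57.9%, 48.0 to 67.4%). It lay there at 58.3% of all 1081 ends with a gene-end peak and at 58.3% of the 16309 ends without. Either hexamer lay there at 62.0% (51.7 to 71.5%) and 64.5% (54.6 to 73.5%) of the spanned ends, against 71.5% of all ends with a gene-end peak and 71.2% of the ends without. The spanned shares were thus lower by this count, with intervals that reach 71.2%. Inside the peaks AATAAA was seldom inside a footprint, at 4 of 88 matches in peaks of library 1 and 8 of 92 in library 2, while footprints covered 13.2% and 13.8% of the bases of these peaks.

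CTCF matches were found in about 1 in 10 gene-end peaks as well, with a larger share in strong ones. The consensus of 12 bases, searched on both strands, stood in 86 gene-end peaks of library 1 (10.4%, 8.39 to 12.7%) and 89 of library 2 (9.49%, 7.69 to 11.5%). Other distal peaks held it in 5.23% and 5.05% of cases, promoter peaks in 1.551% and 1.499% and all peaks in 4.36% and 4.19%. In windows at gene ends without a peak the share was 0.0891%. The median signal with a match was 1.27 (library 1) and 1.33 (library 2), and without a match it was 0.715 and 0.654. Those with a match were shared with the other library in 97.7% and 94.4% of cases, against 77.2% and 67.6%. Other distal peaks showed the same order. Their median signals were 1.05 and 1.23 with a match and 0.551 and 0.543 without. They were shared in 93.6% and 92.1% of cases with a match, against 73.6% and 70.3%. By signal band, from weakest to strongest, the share of gene-end peaks with a match was 3.03%, 4.29%, 10.7% and 19.7% in library 1, against 1.47%, 3.0%, 6.26% and 13.5% of other distal peaks. In library 2 it was 2.75%, 2.92%, 10.4% and 19.8%, against 1.26%, 2.57%, 5.51% and 14.9%. The intervals of gene-end and other distal peaks did not overlap in the upper 2 bands of library 1 or in the third band of library 2. In the strongest band of library 2 they did, at 15.1 to 25.4% and 14.4 to 15.5%.

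**Figure D5:**
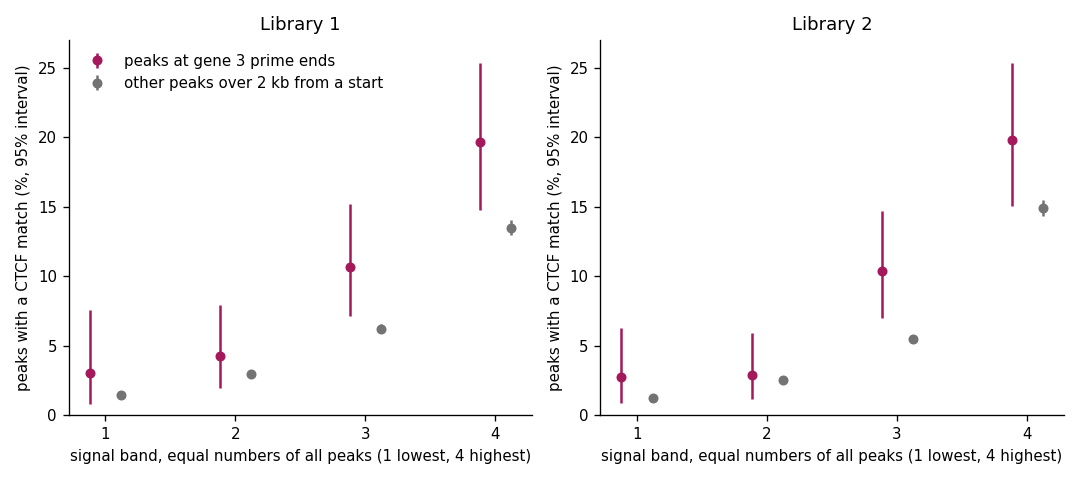
Percent of peaks with a CTCF match (95% intervals) by signal band, each with equal numbers of all peaks, for gene-end peaks (purple) and other peaks over 2 kb from a start (grey), in library 1 and library 2. In the strongest band the shares are 19.7% and 19.8% for gene-end peaks, above 13.5% and 14.9% for the other peaks.

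The CTCF matches of gene-end peaks were nearly all footprinted. Of 88 matches inside gene-end peaks of library 1, 78 had their middle in a footprint (88.6%, 80.1 to 94.4%), as did 81 of 89 in library 2 (91.0%, 83.1 to 96.0%). In other distal peaks the shares were 85.5% and 89.8%. The genome held 157 matches in the sequence within the gene-end rule, or 10.5 per Mb, against 4.55 per Mb in other sequence over 2 kb from a start. A peak covered 89 of the 157 in library 1 (56.7%, 48.6 to 64.6%) and 92 in library 2 (58.6%, 50.5 to 66.4%). In other sequence over 2 kb from a start, peaks covered 43.1% and 43.6% of 10645 matches, and in promoter windows 54.9% and 57.7% of 792. Part of that distal sequence, other exons outside CDS, had 52.2% (46.1 to 58.2%) and 54.7% (48.6 to 60.7%) of 276 matches covered. These intervals overlap those of gene ends. In CDS 33.3% and 35.8% of 159 were covered. The motif read along the gene's strand at 50 of 88 matches in library 1 (56.8%, 45.8 to 67.3%) and 51 of 89 in library 2 (57.3%, 46.4 to 67.7%). It lay upstream of the gene end at 39 (44.3%) and 38 (42.7%). The 83 matched pairs with a match had a median log2 of library 1 over library 2 of -0.29, and the 542 pairs without had -0.07.

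Other consensus sequences were read in the same windows on both strands. AP-1 (TGANTCA) stood in 12.4% of gene-end peaks in library 1 and 9.70% in library 2, against 16.3% and 13.0% of other distal peaks and 13.2% and 10.5% of all peaks. The GC box GGGCGG stood in 10.6% and 11.4%, against 7.11% and 7.47% of other distal peaks and 46.2% and 45.04% of promoter peaks. Gene-end peaks with a GC box had medians of 1.13 and 1.02, against 0.721 and 0.666 without. The E-box CAGATGG of NeuroD factors stood in 10.1% and 9.91%, against 12.6% and 11.9% of other distal peaks, and 40.4% and 46.7% of its matches in gene-end peaks were in footprints. CACGTG stood in 5.92% and 5.86%, against 4.04% and 4.09% of other distal peaks. The 8-base CA repeat CACACACA was in 5.43% and 5.54% of gene-end peaks and in 5.14% and 5.14% of other distal peaks. NRF1, a factor of promoters, matched in 0 gene-end peaks of either library, which allows up to 0.445% and 0.392%. It matched in 0.473% and 0.477% of promoter peaks and in 0.0515% and 0.0503% of other distal peaks. The 0 matches therefore do not set gene-end peaks apart from other distal peaks. MEF2, NFI, RFX, SOX (ACAATGG), YY1 (AAGATGGC), ETS (CCGGAAG), CRE (TGACGTCA) and the CCAAT box (CCAATCA) each matched in at most 2.05% of gene-end peaks and 2.33% of other distal peaks. Runs of AAAAAAAA stood in 3.02% and 2.67%, against 3.91% and 3.36% of other distal peaks.

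Genes with a gene-end peak had an open promoter in a larger share of cases than genes without, a difference described here with no test. A peak within 500 bases of one of their own starts was present in both libraries at 472 of the 645 genes with a gene-end peak in both (73.2%, 69.6 to 76.6%). It was present at 336 of 436 genes with a gene-end peak in only 1 library or without overlap (77.1%, 72.8 to 80.9%), and at 10447 of 16309 genes with none (64.1%, 63.3 to 64.8%). The strength of those promoters was alike, with median signals of 3.03 in library 1 and 3.18 in library 2 for the 645 genes, against 3.03 and 3.38 for genes with none. The end of a gene on the opposite strand lay within 1 kb at 69 of the 645 genes (10.7%, 8.42 to 13.3%), 74 of the 436 (17.0%, 13.6 to 20.8%) and 1227 of the 16309 (7.52%, 7.12 to 7.94%). Median gene length was 24338 bases in the 645 genes and 21605 bases in genes with none. The signal at the end did not follow that of the promoter. Across the 645 genes Spearman's rank correlation was -0.06 in library 1 and -0.06 in library 2, as a description over genes. The end had the higher signal at 253 genes in library 1 and 242 in library 2, most of which had no promoter peak. Among genes with a promoter peak it did so at 87 of 479 and 100 of 503, and the median ratio of end to promoter was 0.345 and 0.371.

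The tissue label was checked by promoter peaks in both libraries. All 12 pan-neuronal and all 12 excitatory neuron genes had them, as did 9 of 12 genes of inhibitory neurons, 11 of 12 of astrocytes, 8 of 12 of oligodendrocytes and their precursors, 4 of 12 of microglia, 4 of 12 of endothelial cells and 0 of 12 of liver. Of the 16309 genes whose end could hold a gene-end peak and had none, 64.1% had them too. Counts of 8 or 9 of 12 are near that share, and those of microglia and endothelial cells lie below it. These 4 lists therefore say little about the label. Gene-end peaks at the list genes were few. Over all 14 lists, 167 of 168 entries matched the annotation and 143 had an end that could hold such a peak, of which 2 had a gene-end peak in both libraries (1.40%), next to 3.71% of all such ends. In at least 1 library 9 of the 143 had one (6.29%), against 1081 of all 17390 ends (6.22%), so by that count the list genes were not rarer. Nr1d1, a repressor of the circadian clock, had 1.21 in library 1 and 1.12 in library 2 at its end, in an intron of Thra on the opposite strand, against promoter signals of 10.8 and 11.1. Junb, an immediate early AP-1 factor, had 0.939 and 0.777 at its end, in an exon of Prdx2 on the opposite strand, against 6.17 and 6.54 at its promoter. They were the only list genes with overlapping gene-end peaks in both libraries.

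The other 12 lists had no gene with such a peak in both libraries. Besides cell types and liver they were synaptic genes with long 3′ UTRs, housekeeping genes, chromatin loop factors, and factors of mRNA cleavage and polyadenylation, and the promoters of 12, 12, 11 and 12 of these had peaks in both. Some list genes had a gene-end peak in 1 library, and those named here were chosen after their values were seen. In library 2 these were Tbr1 (0.530) and Fezf2 (0.314), factors of deep cortical layers, and S100b (0.666), a calcium-binding protein of astrocytes. In library 1 Abcb1a, a drug efflux pump of brain endothelium, had 0.170. Arc, an immediate early gene of synapses, had 0.524 in library 1 and 0.623 in library 2 at places that did not overlap. Shank1, a postsynaptic scaffold, had its gene-end peak in library 1 only, at a signal of 5.70, where an overlapping peak of library 2 had its midpoint in CDS.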

How the data were processed

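Peaks, footprints and per-base tables of 2 DNase-seq libraries were deposited by the authors on mm10, each made per library from its own alignments, per the deposited readme files. Aligner, peak caller, thresholds and the placement of reads from CAST alleles remain open, not given in the sources used here. For peak signal (column 7), deposited by the authors, no normalization is stated, and it was used as it stands. The deposited per-base tables list q-values under 0.05, and 0.01 is the single q-value of every deposited footprint.

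The longer peak list was used on chromosomes 1 to 19, X and Y, with GENCODE M21 and RefSeq's GRCm38.p6. Promoter peaks had their midpoint within 500 bases of a start. Sharing needed 1 shared base. A footprint was counted in the peak that held its middle. Motifs (18 consensus sequences, exact letters) were read in 200 bases around midpoints, and footprint overlap within the peak. Some consensus sequences overlap in place, such as AATAAA with a run of A, and CAGATGG within a CTCF match. Shares have exact (Clopper-Pearson) 95% intervals. No test was made. Assignment, sharing, footprint counts and the motif search were checked on simulated data.

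The rule, gene lists and motifs were chosen with earlier results of these data known. Named genes are those at the 20 strongest matched gene-end peaks, up to 3 list genes with a peak in both libraries, the 5 strongest unshared peaks of each library, the 5 pairs farthest apart in each direction at or above the median signal, and the 10 with most footprints. Sequences were printed for named peaks only. The list entry Znf143 found no match in the annotation. Alternatives were the shorter peak list, windows of 250 and 1000 bases, 5 kb from starts, no CDS base in the peak, ends of any transcript, peaks at or above the median signal, 50% overlap, motifs in the peak itself, any footprint overlap and each library alone. Software was scipy 1.17.1, matplotlib 3.10.9, pandas 2.3.3 and numpy 2.4.6 under Python 3.11.15. Some items that the lists take are not reported here.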

Additional observations from a re-analysis of the deposited data

How the results depend on the processing

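Each alternative gives the mean of both libraries unless it is a count of genes or pairs. Of 91 values of the gene-end peaks, 50 stayed within the spread between libraries or within 1.5 times of a count. The shares and median signals of each library alone are among these 50. They fall within that spread by construction, so the 50 overstates how stable the values are. Gene-end peaks per library (883 as reported, 828 to 938 with each library alone) numbered 513 in the shorter peak list, 394 within 250 bases, 1721.5 within 1000 bases, 525.5 over 5 kb from starts, 1372 at ends of any transcript and 501 at or above the median signal. The share found in the other library (74.7%, 70.1 to 79.3%) was 86.0% at or above the median signal and 64.7% with 50% overlap. The median signal (0.729, 0.709 to 0.749) was 1.10 in the shorter list, 0.696 over 5 kb from starts, 0.6999 at ends of any transcript and 1.15 at or above the median signal. The share with a footprint (82.4%, 82.1 to 82.6%) was 93.2% in the shorter list, 84.7% within 250 bases, 81.9% with no CDS base and 96.8% at or above the median signal. The share upstream of the end (46.6%, 46.5 to 46.8%) was 43.2% within 250 bases, 45.9% within 1000 bases, 46.9% over 5 kb from starts, 43.9% with no CDS base, 46.1% at ends of any transcript and 47.6% at or above the median signal. AATAAA (11.2%, 10.9 to 11.5%) stood in 10.1% in the shorter list, 19.8% within 250 bases, 7.99% within 1000 bases, 9.66% at ends of any transcript, 10.6% at or above the median signal and 9.45% within the peak itself. CTCF matches (9.94%, 9.49 to 10.4%) stood in 13.5% in the shorter list, 8.75% within 250 bases, 9.22% at ends of any transcript and 14.97% at or above the median signal. Genes with a gene-end peak in both libraries (645) numbered 411 in the shorter list, 298 within 250 bases, 1205 within 1000 bases and 394 over 5 kb from starts. Pairs over 2-fold apart (5) numbered 2 within 250 bases and 10 within 1000 bases. The share of these genes with a promoter peak (73.2%) was 66.2% in the shorter list, 78.5% at ends of any transcript and 68.7% at or above the median signal. The comparison with other distal peaks was recomputed after the data were seen. Gene-end peaks were higher in both libraries in median signal under all 7 alternatives, and in the shares with a footprint, with AATAAA and with a CTCF match under all 8 each. At or above the median signal the footprint shares were nearly alike, 96.5% against 95.9% in library 1 and 97.1% against 96.5% in library 2. The rule picks peaks by nearness to gene ends, where windows without a peak held AATAAA in 22.1%. The order for AATAAA therefore carries no weight as a trait of the peaks. In the share found in the other library, which was higher in library 1 and lower in library 2 as reported, gene-end peaks were higher in both under 3 of 8. The share with AATAAA less that with a CTCF match (1.24 percentage points) turned to -3.43 in the shorter list, -1.99 within 1000 bases, -4.37 at or above the median signal and -0.38 within the peak itself. Other classes were not recomputed. Wider windows and the shorter list change the number of peaks by construction, and the cause of the other changes was not tested.

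No paired analysis was possible because there is 1 group. The 2 libraries share a donor identifier, so their SDs are not shown to cover the spread between animals. Weak gene-end peaks were shared least often, and were 46.2% and 31.3% shared in the lowest signal band. Peak lists cannot show accessibility below the authors' threshold, and an end without a peak is not shown to be closed. Annotated gene ends can miss the ends used in cortex.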

Other observations

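Per end that could hold one, gene-end peaks were rarer on chromosome X than on any autosome. Other classes of peak were not counted by chromosome. Whether this is particular to gene-end peaks or shared by all peaks of chromosome X was therefore not tested. Chromosome X held 16 in library 1 and 13 in library 2, or 2.07 and 1.68 per 100 ends that could hold one. The autosomes held between 3.85 (chromosome 9) and 6.51 (chromosome 15) per 100 ends in library 1 and between 4.31 (chromosome 5) and 7.98 (chromosome 11) in library 2. The X peaks had median signals of 0.323 and 0.567. Chromosome Y, which these female mice lack, held 0 at 117 such ends.

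In 48 matched pairs the peak of only 1 library met the rule, 24 in each, because the 2 midpoints fell on different sides of a limit. The genes named here were chosen after their values were seen. The strongest stood at the shared end of 1700008O03Rik and Shank1, with a signal of 5.70 in library 1 (chr7:44360061-44360200) and 6.33 in library 2 (chr7:44360081-44360320), where the midpoint of the library 2 peak lay in CDS. Ddn, which encodes dendrin of the postsynapse, had 3.29 in library 1 and 3.96 in library 2 at 494 and 504 bases inside its end. Vgf, a secreted neuropeptide precursor, had 2.78 and 3.34, with its library 1 midpoint in CDS. Both libraries were therefore open at these 3 places, although the rule counts each place in a single library.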
